A study of Mus musculus with 9 samples.

Results

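The SLC25 mitochondrial carriers were taken as every gene whose symbol in the deposited values is Slc25a followed by a number. The rule found 47 genes among 24013 gene symbols. All 47 were read in the same 9 libraries of poly(A) RNA from beige adipocytes, the inducible fat cells that form in subcutaneous depots. The cells came from inguinal stromal vascular cells (ingSVF) of mice and were collected at day 7 of differentiation. The groups were C57BL6/J (B6, a strain the series calls obesity prone), 129X1/SvJ (129, called obesity-resistant) and their F1 offspring, with 3 libraries each. Every group was induced at confluence for 48 hours in 10% serum with the hormones insulin (850 nM), T3 (1 nM) and dexamethasone (1 µM). The same medium held the drugs rosiglitazone (1 µM), indomethacin (125 nM) and isobutylmethylxanthine (0.5 mM). Serum, rosiglitazone, insulin and T3 were then kept at these doses without the other agents, and no comparison has a group free of them. The labels give no age, sex, direction of the F1 cross or source of the replicates, so a p-value reflects the spread among libraries, which may be technical. The series asks how genetic variation between the strains bears on adipocyte browning.

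SLC25 proteins form the main family of solute carriers of the mitochondrial inner membrane. Most exchange a metabolite of the matrix for one of the cytosol: ADP for ATP, citrate for malate, aspartate for glutamate, carnitine for acylcarnitine, and so on for phosphate, nucleotides, cofactors, iron and glutathione. Their symbols number the genes in order of naming and not by substrate, and some members lie in the outer membrane or in peroxisomes. In brown and beige fat the family is best known for UCP1, the proton carrier of heat production. UCP1 belongs to the family by sequence but carries another symbol, and it was therefore outside the rule.

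The sequences shown here belong to 4 carriers on which the results turn. Slc25a23 and Slc25a24 moved in opposite directions between the strains, the largest shift among the 6 pairs of relatives compared below. Slc25a25, the other tested relative, was low in F1, and Slc25a34 had the largest F1 excess over the parents. Their 250 bases before an annotated transcription start are printed from RefSeq, build GRCm38.p6, which is not the mm9 build of the expression values. Capitals mark a CRE (TGACGTCA, the cAMP response element) or a CCAAT box (CCAAT, or ATTGG on the other strand). The windows are chr17:57059843-57060092 (minus strand), chr3:109122899-109123148 (plus), chr2:32424067-32424316 (minus) and chr4:141623835-141624084 (minus), in the order of the lines.
Slc25a23: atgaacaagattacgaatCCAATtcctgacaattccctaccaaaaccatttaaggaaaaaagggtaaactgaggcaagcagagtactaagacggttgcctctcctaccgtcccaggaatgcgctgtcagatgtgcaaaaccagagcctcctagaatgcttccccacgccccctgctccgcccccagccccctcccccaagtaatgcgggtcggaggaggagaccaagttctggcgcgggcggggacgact
Slc25a24: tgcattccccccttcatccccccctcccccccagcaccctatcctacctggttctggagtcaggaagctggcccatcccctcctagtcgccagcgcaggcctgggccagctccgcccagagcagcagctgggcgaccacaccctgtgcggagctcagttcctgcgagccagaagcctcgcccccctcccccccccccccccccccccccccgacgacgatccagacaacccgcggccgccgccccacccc
Slc25a25: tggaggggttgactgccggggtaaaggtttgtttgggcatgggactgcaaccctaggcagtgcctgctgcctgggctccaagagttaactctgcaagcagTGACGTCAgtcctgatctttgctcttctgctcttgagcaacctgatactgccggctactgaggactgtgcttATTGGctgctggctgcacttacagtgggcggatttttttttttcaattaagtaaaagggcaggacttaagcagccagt
Slc25a34: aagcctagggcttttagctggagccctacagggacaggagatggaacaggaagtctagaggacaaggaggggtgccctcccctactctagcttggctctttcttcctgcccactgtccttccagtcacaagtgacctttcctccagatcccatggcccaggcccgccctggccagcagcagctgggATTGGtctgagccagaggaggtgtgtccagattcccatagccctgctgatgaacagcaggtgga

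These windows differ in composition. The Slc25a24 window had 72.3% G and C over 300 bases, counting the 50 bases after the start, and held neither motif. That of Slc25a34 had 59.0% G and C but 1 CpG. The Slc25a25 window printed here held the CRE, which began 150 bases before the start, and 1 CCAAT box. Slc25a25 has 2 other annotated starts, whose windows held CCAAT boxes and no CRE, and the expression values do not separate its starts. RefSeq windows were matched for 36 of the 47 genes, 46 windows in all. A CCAAT box stood in 22 of the 46 windows (47.8%), against 37.4% of all 32851 mouse windows of the same length. Windows of 1 gene can overlap, and those of Slc25a23 hold the same box, so the windows are not independent. Median G and C was 59.83% in windows of tested carriers, 61% in those of all tested genes and 52.67% in all windows. The CRE stood in the windows of Slc25a25 and Slc25a36 and in 1.79% of all windows. Of the other motifs searched on both strands, the sterol regulatory element TCACNCCAC was found once, at Slc25a18, against 1.24% of all windows. The NRF1 core GCGCATGCG (1.75% of all windows) and the ERR response element TNAAGGTCA (1.28%) had no match. The printed CRE and CCAAT matches do not overlap one another, and a match describes letters only.

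RNA level was given as RPKM, reads per kilobase of exon per 1000000 assigned reads. The assigned reads numbered 39686986 to 53410947 in the F1 libraries, more than in any parental library (B6 from 19130022 to 26931438; 129 from 23710908 to 28473083). Adipocyte markers summed to 27800 to 31800 RPKM in B6, 31600 to 34200 in 129 and from 35500 to 38000 in F1. Each of the 7, Adipoq, Fabp4 and Plin1 included, was at 1 RPKM or more in at least 1 library. Fabp4 made up most of that sum, with means of 23500, 26900 and 31300 RPKM in B6, 129 and F1, while Adipoq had 1510, 1290 and 1350. In 129 minus B6, 1 of the 7 markers was higher (Cidec) and 1 lower (Adipoq). The 6 thermogenic markers summed to 176 to 205, 237 to 251 and 226 to 234 RPKM in the same order. They did not move together: in 129 minus B6, Ucp1 and Cidea were higher, and Cox8b (-0.88) and Ppargc1a (-0.59) lower. Progenitor markers summed to 449 to 595 in B6, 473 to 493 in 129 and from 332 to 413 in F1, with Dpp4 under 1 RPKM throughout. Ly6a made up most of that sum (means of 411, 340 and 296 RPKM). Pdgfra (0.88), Cd34 (0.47) and Pdgfrb (0.25) were higher in 129 than in B6, and Dlk1 (-0.47) was lower. Of the 6 tested progenitor markers, 5 were lower in F1 than the mid-parent value, beside 14.8% of all tested genes. Dlk1 (0.03) did not pass there. Macrophage markers summed to 41.9 to 52.1, 20.6 to 45.1 and 37.1 to 53.6, and smooth muscle markers to 129 to 144, 128 to 137 and 99.9 to 106. Endothelial markers summed to at most 5.57, with Cdh5, Kdr and Vwf under 1 RPKM. All 4 lymphocyte markers and 4 of 5 skeletal muscle markers were under 1 RPKM in every library. The part of these differences in the results on carriers was not tested. In bulk RNA, fewer cells of a type and less RNA per cell cannot be told apart. Within B6, replicate 2 held the lowest level of the group for 24 of 36 carriers, with a median log2 difference of -0.09 from the other 2 libraries. B6 replicate 1 had a mean log2 level of 4.73 over 8 interferon-response genes, against 2.01 to 3.10 in the other 8 libraries.

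Of the 47 carriers, 36 passed the filter (RPKM of at least 1 in at least 3 libraries) and were tested, and 11 were not. The summed RPKM of all 47 was 3348, 3036 and 3433 in B6, 2866, 2894 and 3000 in 129, and 3178, 3023 and 2954 in F1. The means were 3272 ± 209 (SD, n = 3), 2920 ± 70.4 and 3052 ± 115. All 129 libraries lay below all B6 libraries, and F1 overlapped both parents. With exact two-sided permutation tests, where 3 against 3 libraries cannot go below 0.1, p was 0.1 for 129 against B6, 0.2 for F1 against B6 and 0.2 for F1 against 129. Each was 0.2 after adjustment over the 3 comparisons. Carrier reads made up 0.514% to 0.61% of the assigned reads. A few genes held most of the sum: Slc25a5 contributed 22.6% to 24.9% of it, Slc25a4 14.7% to 16.9%, Slc25a1 13% to 16.0% and Slc25a3 10.8% to 12.2%.

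**Figure D1:**
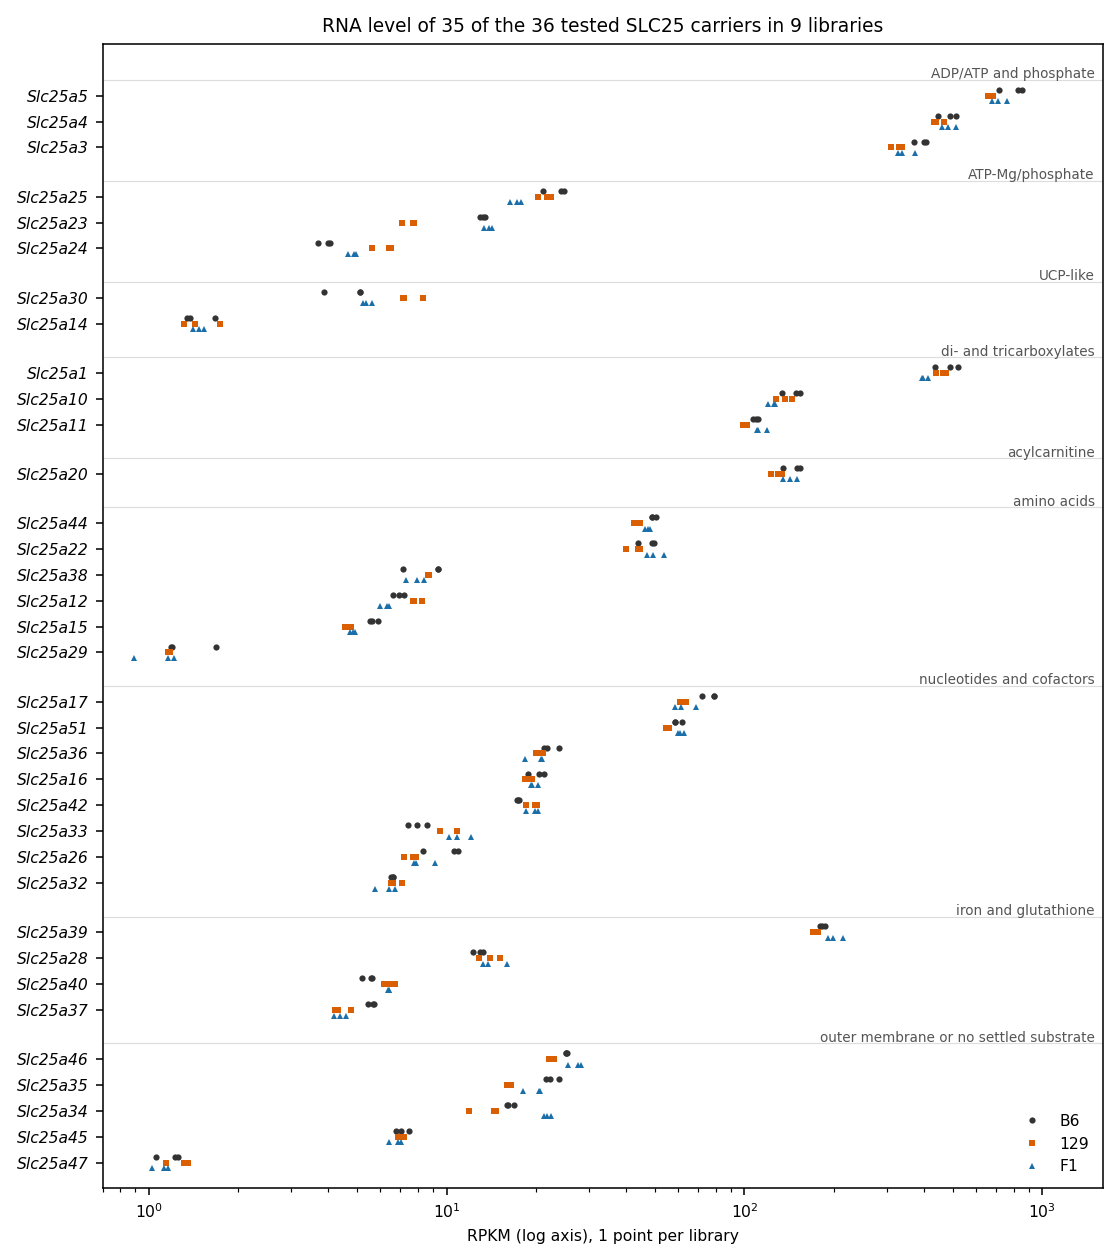
RNA level (RPKM, log axis) of 35 of the 36 tested SLC25 carriers, 1 point per library, grouped by substrate; B6 in black circles, 129 in orange squares, F1 in blue triangles. Levels span from about 1 RPKM (Slc25a47, Slc25a29) to 853 RPKM (Slc25a5 in B6 replicate 3), and the 3 groups lie close together for most carriers.

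The 129 libraries held less RNA than B6 for 14 of the 36 tested carriers and more for 6, while 16 did not pass (limma, Benjamini-Hochberg adjusted p under 0.05 over 11542 genes). These counts are 38.9% and 16.7% of the tested carriers, beside 21.7% of all tested genes lower and 15.9% higher. The median log2 fold change was -0.11 over the carriers and -0.03 over all genes, and 25 of the 36 lay below 0. Fold changes are on the log2(RPKM + 1) scale, which understates changes of low genes. When libraries were rescaled by the median of ratios, the split of carriers moved from 14 lower and 6 higher to 11 and 6. Without B6 replicate 1 it was 11 and 5, and without B6 replicate 2 it was 18 and 6. The split of all genes moved from 2499 lower and 1834 higher to 1995 and 2257, so the direction of the surplus over all genes depends on the scaling. Reads that carry 129 alleles may differ from the reference, and the loss of such reads in alignment was not tested.

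The F1 libraries were compared with each parent and with the mid-parent value, here the mean over both parents on the log2 scale. These comparisons share libraries with one another and with 129 minus B6. Against B6, 5 carriers were higher and 7 lower in F1 (background 11.0% and 20.2% of all tested genes). Under median-of-ratios rescaling that split became 7 higher and 5 lower. All tested genes shifted as well, from 1270 higher and 2329 lower to 1904 and 1591. Without B6 replicate 1 the split of carriers was 4 and 5, and without B6 replicate 2 it was 5 and 11. Against 129, 9 were higher and 4 lower (background 12.0% and 15.7%). Against the mid-parent value 7 were higher and 5 lower (background 8.35% and 14.8%). After rescaling 10 were higher and 3 lower, while all tested genes moved from 964 higher and 1712 lower to 1425 and 1250. The 7 higher became 4 without F1 replicate 1. The 5 lower became 3 without B6 replicate 1, B6 replicate 3 or F1 replicate 2, 2 without F1 replicate 3 and 8 without B6 replicate 2. The median log2 fold change of the carriers was -0.04 against B6, 0.04 against 129 and -0.01 against the mid-parent value, beside -0.04, -0.01 and -0.03 over all genes. In 3 carriers all F1 libraries lay above all parental ones (Slc25a39, Slc25a46, Slc25a34), and in 4 they lay below (Slc25a1, Slc25a10, Slc25a25, Slc25a12). Over all tested genes these shares were 5.72% above and 9.7% below, so counts of 3 and 4 among 36 lie near the background.

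**Figure D2:**
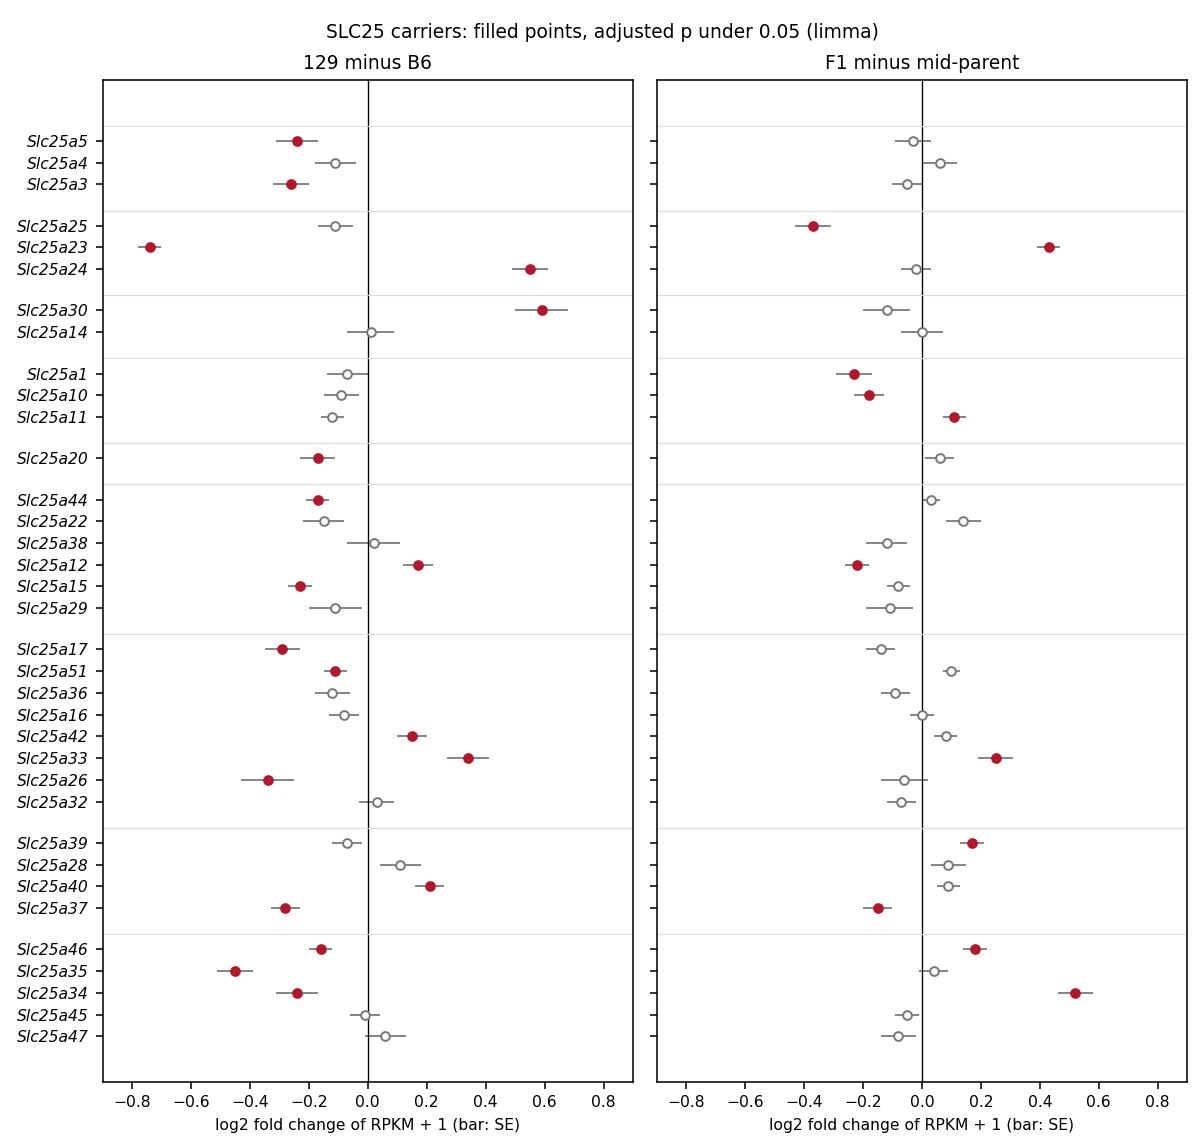
Log2 fold change of RPKM + 1 (points, with the standard error from limma as bars) of the same 35 carriers for 129 minus B6 and for F1 minus mid-parent, in the same order as the plot of levels; filled points have an adjusted p under 0.05. Slc25a23 has the lowest 129 minus B6 value (-0.74) and Slc25a30 the highest (0.59), and Slc25a34 has the highest F1 minus mid-parent value (0.52).

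The ADP/ATP carriers bring ADP into the matrix in exchange for newly made ATP, and the phosphate carrier Slc25a3 supplies the phosphate for the same reaction. All 3 tested members of this group were abundant, and 2 fell in 129, beside 21.7% of all tested genes. Slc25a5 (ANT2; chrX:34335647-34338801 in mm9, plus strand) had 828, 713 and 853 RPKM in B6, 678, 655 and 685 in 129, and 761, 708 and 678 in F1. Every 129 library was below every B6 library, and F1 lay across the gap between them. The 129 minus B6 log2 fold change was -0.24 ± 0.07 (SE; adjusted p = 0.0259, limma). This call was lost in 7 of 18 alternative settings, among them rescaling (-0.20) and leaving out B6 replicate 1, B6 replicate 3 or any 129 library (-0.26 to -0.19). Slc25a5 also has processed pseudogenes, and how reads shared with such copies were counted is not given in the sources used here, so its level is uncertain.

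Slc25a3 (chr10:90579323-90586708, minus strand) had 399, 371 and 406 RPKM in B6, 311, 329 and 339 in 129, and 374, 338 and 328 in F1. The parental groups did not overlap, and F1 lay between and across them. It fell in 129 by 0.26 ± 0.06 on the log2 scale (adjusted p = 0.00732) and passed in all 18 settings. Slc25a4 (ANT1; chr8:47292698-47296363, minus strand), the ADP/ATP carrier best known from heart and muscle, had 491, 445 and 513 RPKM in B6, 440, 434 and 466 in 129, and 482, 512 and 459 in F1. Its groups overlapped, and -0.11 ± 0.07 did not pass in 129 minus B6 (adjusted p = 0.213). Without B6 replicate 2 it was -0.17 and passed. None of the 3 passed in F1 against the mid-parent value. Slc25a31, the ADP/ATP carrier of the testis, was not tested, at 0.0176 to 0.0924 RPKM in B6, 0.183 to 0.299 in 129 and from 0.255 to 0.346 in F1. Those levels rest on 1 to 5 reads per B6 library and 11 to 29 in the others.

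ATP-Mg/phosphate carriers adjust the amount of adenine nucleotides in the matrix and are regulated by calcium. The 3 tested members moved in 3 ways: Slc25a23 was lower in 129, Slc25a24 was higher in 129, and Slc25a25 was lower in F1 than in either parent. Slc25a23 (chr17:57183134-57199286, minus strand) had 12.9, 13.5 and 13.3 RPKM in B6, 7.10, 7.74 and 7.77 in 129, and 13.4, 13.9 and 14.2 in F1. The 129 libraries stood apart below, and F1 was at the B6 level. Its mean level in B6 was 1.76 times that in 129, with a log2 fold change of -0.74 ± 0.04 (adjusted p = 5.83e-07), the lowest value among the 36 carriers. F1 exceeded 129 by 0.80 ± 0.04 (adjusted p = 1.29e-06) and the mid-parent value by 0.43 ± 0.04 (adjusted p = 7.67e-05), and its difference from B6 was 0.06 (adjusted p = 0.351).

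Slc25a24 (chr3:108926067-108971327, plus strand) ran the other way. Its RPKM was 4.0, 4.05 and 3.69 in B6, 6.50, 6.43 and 5.62 in 129, and 4.67, 4.97 and 4.88 in F1. The 3 groups did not overlap, and F1 lay between the parents. It rose 1.58-fold in 129, by 0.55 ± 0.06 on the log2 scale (adjusted p = 3.73e-05). F1 was above B6 by 0.25 (adjusted p = 0.00876), below 129 by 0.30 ± 0.06 (log2 fold change -0.30, adjusted p = 0.00403) and -0.02 from the mid-parent value. Within a library, Slc25a24 made up 23.6%, 23.0% and 21.8% of the summed RPKM of these 2 carriers in B6, 47.8%, 45.4% and 42.0% in 129, and 25.8%, 26.4% and 25.6% in F1. The less abundant carrier in B6 thus came close to its relative in 129.

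Slc25a25 (chr2:32270007-32306990, minus strand) had 24.2, 21.0 and 24.8 RPKM in B6, 21.7, 20.3 and 22.4 in 129, and 17.8, 16.3 and 17.2 in F1. The parents overlapped, and all F1 libraries lay below both. The F1 minus mid-parent log2 fold change was -0.37 ± 0.06 (adjusted p = 0.00112), with -0.42 against B6 and -0.31 against 129. Its exons share 404 bases with Naif1 on the opposite strand. The library kit marks strand, but whether the counting used it is not given in the sources used here. Slc25a41, the remaining member of the group, was at 0 in 7 libraries and had 3 reads in all 9.

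**Figure D3:**
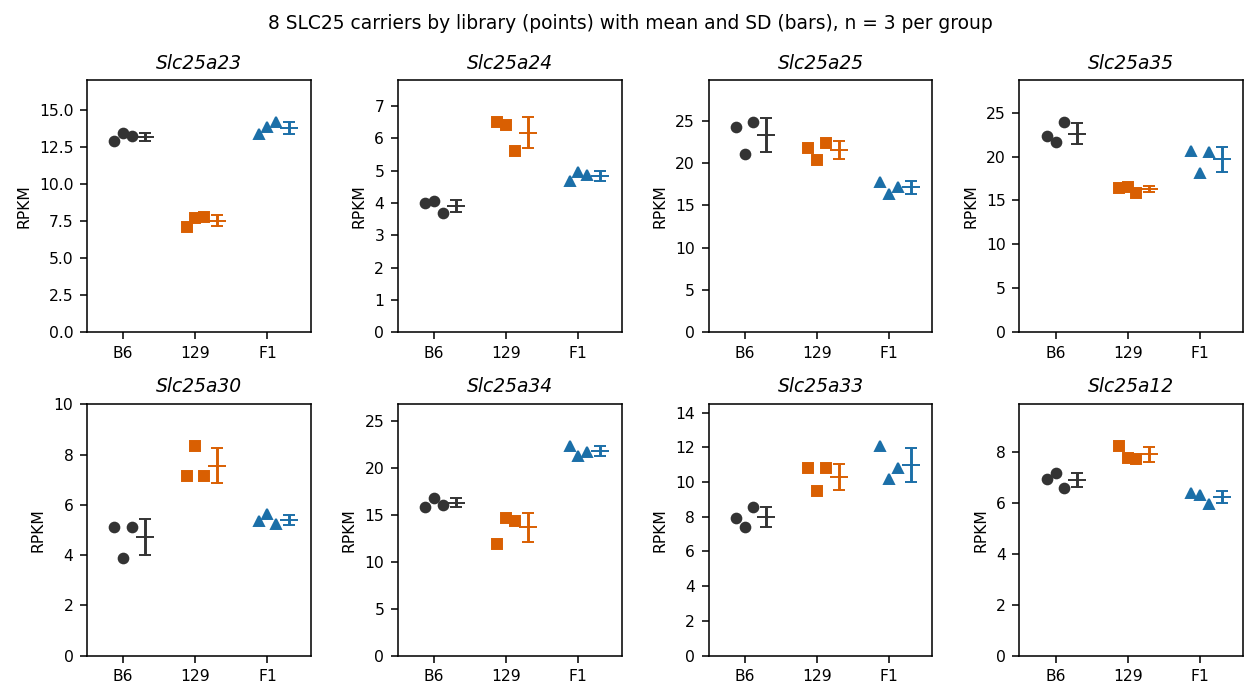
RPKM of 8 carriers in each library (points) with the mean and SD of 3 libraries (bars), axes from 0. Slc25a23 and Slc25a35 are lowest in 129, Slc25a24, Slc25a30 and Slc25a33 are higher in 129 than in B6, and F1 is below both parents for Slc25a25 and Slc25a12 and above both for Slc25a34.

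The UCP-like carriers are those closest in sequence to the uncoupling proteins. Slc25a30 (chr14:76161806-76186844, minus strand) had 5.14, 3.89 and 5.11 RPKM in B6, 7.14, 8.36 and 7.17 in 129, and 5.35, 5.63 and 5.25 in F1. No groups overlapped, and F1 stood near B6. It rose 1.60-fold in 129, by 0.59 ± 0.09 on the log2 scale (adjusted p = 0.000426), and F1 was lower than 129 (-0.41, adjusted p = 0.00635). The F1 minus mid-parent value of -0.12 did not pass, although without B6 replicate 2 it was -0.18 and passed. Slc25a14 (1.31 to 1.73 RPKM) gave 0.01 in 129 minus B6, and Slc25a27 (0.87 to 1.17 RPKM) was not tested. The family members under other names were set beside them. Ucp1, the proton carrier of brown fat, had 9.88 ± 0.752 RPKM in B6, 62.6 ± 1.96 in 129 and 52.4 ± 1.79 in F1. Ucp2 had 20.2 ± 2.10, 184 ± 3.65 and 108 ± 1.37. Both rose in 129, by 2.55 (adjusted p = 2.38e-10) and 3.13 (adjusted p = 1.89e-10) on the log2 scale. Ucp3 (-0.32) and Mtch2 (-0.19) fell, and Mtch1 (0.12) did not pass. No tested Slc25a gene had a 129 minus B6 change of the size seen in Ucp1 or Ucp2.

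Citrate, dicarboxylate and oxoglutarate carriers move the intermediates used for fatty acid synthesis and for the malate-aspartate shuttle. None of the 3 tested members passed in 129 minus B6, and all 3 passed in F1 minus mid-parent, 2 lower and 1 higher. Over all tested genes, 14.8% were lower and 8.35% higher in F1 minus mid-parent. Each of the 3 calls was lost in some of the alternative settings. Slc25a1 (chr16:17925304-17928312, minus strand), which exports citrate as the source of cytosolic acetyl-CoA, had 490, 435 and 521 RPKM in B6, 441, 463 and 473 in 129, and 412, 396 and 395 in F1. The parents overlapped and every F1 library was below them. The F1 minus mid-parent value was -0.23 ± 0.06 (adjusted p = 0.0168), and -0.22 without F1 replicate 2 or F1 replicate 3, where it did not pass. Slc25a10, the dicarboxylate carrier, had 120 to 127 RPKM in F1 against 128 to 153 in the parents. Its F1 minus mid-parent value was -0.18 and was lost in 9 of 18 settings, among them rescaling and leaving out any 1 of 7 libraries, all but B6 replicate 2 and 129 replicate 1. Slc25a11, the oxoglutarate/malate carrier, had 107 to 111 RPKM in B6, 99.2 to 102 in 129 and from 110 to 119 in F1. F1 exceeded 129 by 0.17, and the mid-parent value by 0.11, a call lost in 14 of 18 settings, leaving out any library among them. Slc25a21, an oxodicarboxylate carrier, was not tested, at 0.108 to 0.366 RPKM.

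Slc25a20 brings acylcarnitines into the matrix for fatty acid oxidation. It had 150, 135 and 153 RPKM in B6, 130, 123 and 134 in 129, and 150, 135 and 142 in F1. The 129 libraries lay just below B6, and F1 was at the B6 level. Its fall in 129 (-0.17 ± 0.06, adjusted p = 0.043) was near the threshold and was lost in 9 of 18 settings, among them rescaling and leaving out B6 replicate 1, B6 replicate 3, F1 replicate 3 or any 129 library.

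Among the 6 tested amino acid carriers, Slc25a44 and Slc25a15 fell in 129 and Slc25a12 rose (background 21.7% lower and 15.9% higher). Slc25a44, which carries branched-chain amino acids and is studied in brown fat, had 48.8, 48.8 and 50.3 RPKM in B6, 42.5, 44.4 and 44.5 in 129, and 47.4, 46.4 and 48.2 in F1. The 129 libraries were the lowest and F1 lay just under B6. Its fall was -0.17 ± 0.04 (adjusted p = 0.00546). In the enzymes of the same pathway, Bcat2, the mitochondrial aminotransferase, went from 192 ± 25.6 RPKM in B6 to 106 ± 6.34 in 129. Bckdhb, a subunit of the dehydrogenase of the next step, went from 87.9 ± 7.83 to 189 ± 7.68. The log2 fold changes were -0.85 (adjusted p = 5.01e-05) and 1.10 (adjusted p = 3.96e-07). Other subunits of that dehydrogenase, named after their values were seen, changed less. Bckdha gave -0.16 and did not pass (adjusted p = 0.072), and Dbt gave 0.22 (adjusted p = 0.00395). Slc25a15, the ornithine carrier of the urea cycle, had 5.52 to 5.90 RPKM in B6, 4.55 to 4.77 in 129 and from 4.73 to 4.93 in F1, with -0.23 in 129 minus B6 and -0.20 in F1 minus B6.

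Slc25a12 (chr2:71112352-71205611, minus strand), an aspartate/glutamate carrier of the malate-aspartate shuttle, had 6.93, 7.17 and 6.60 RPKM in B6, 8.26, 7.77 and 7.72 in 129, and 6.41, 6.30 and 5.97 in F1. The 3 groups were separate, with 129 at the top and F1 at the bottom. F1 was below 129 by 0.30 ± 0.05 (log2 fold change -0.30, adjusted p = 0.00109) and differed from the mid-parent value by -0.22 ± 0.04 (adjusted p = 0.00446). Its rise in 129 (0.17, adjusted p = 0.0149) was 0.15 and did not pass without B6 replicate 3 or 129 replicate 1. Slc25a22, a glutamate carrier, had 39.9 to 44.7 RPKM in 129 and 47.2 to 53.5 in F1. Its F1 minus 129 value of 0.22 was lost in 5 of 18 settings, among them leaving out 129 replicate 1, 129 replicate 3, F1 replicate 1 or F1 replicate 3. Slc25a38, the glycine carrier needed for heme synthesis, had 7.14 to 9.37 RPKM and passed in no comparison. Slc25a29, a carrier of basic amino acids, had 0.892 to 1.68 RPKM and likewise passed in none. The remaining 3 amino acid carriers were not tested: Slc25a13 (0.19 to 0.519 RPKM), the other aspartate/glutamate carrier, Slc25a18 (0.0543 to 0.369) and Slc25a2 (0.0148 to 0.145).

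Nucleotide and cofactor carriers supply the matrix, and in 1 case the peroxisome, with the small molecules that its enzymes and nucleic acids need. Of those described here, Slc25a17, Slc25a26 and Slc25a51 fell in 129, and Slc25a33 and Slc25a42 rose (background 21.7% lower and 15.9% higher). Slc25a33 (chr4:149118145-149148376, minus strand), a pyrimidine nucleotide carrier, had 7.95, 7.41 and 8.59 RPKM in B6, 10.8, 9.47 and 10.8 in 129, and 12.1, 10.2 and 10.8 in F1. Here B6 was the low group, and F1 overlapped 129. It rose by 0.34 ± 0.07 in 129 (adjusted p = 0.00439) and by 0.42 ± 0.07 in F1 minus B6 (adjusted p = 0.0017). The F1 minus mid-parent value of 0.25 was 0.19 without F1 replicate 1 and did not pass there. Slc25a36, the other pyrimidine nucleotide carrier, had 18.3 to 23.9 RPKM and passed in no comparison. Slc25a17, a peroxisomal carrier of coenzyme A, FAD and NAD, had 79.1, 71.8 and 79.0 RPKM in B6, 63.5, 60.8 and 63.4 in 129, and 69.0, 58.3 and 61.2 in F1. Both 129 and F1 were below B6, each by -0.29 ± 0.06 as a log2 fold change.

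Slc25a26, which imports S-adenosylmethionine, had 8.36 to 10.9 RPKM in B6 and 7.17 to 7.88 in 129 (-0.34 ± 0.09, adjusted p = 0.0122). Its exons share 124 bases with Lrig1 on the opposite strand. The NAD carrier Slc25a51 had 58.3 to 61.5 RPKM in B6, 54.4 to 55.8 in 129 and from 59.8 to 62.9 in F1. Its fall in 129 (-0.11, adjusted p = 0.0442) was lost in 10 of 18 settings, among them rescaling (-0.07) and leaving out B6 replicate 1, B6 replicate 3, F1 replicate 2 or any 129 library. F1 exceeded 129 by 0.15, which did not pass without 129 replicate 1, 129 replicate 2 or F1 replicate 3. Slc25a42, a coenzyme A carrier, had 17.3 to 17.5 RPKM in B6, 18.5 to 20.1 in 129 and from 18.5 to 20.2 in F1. It was higher than B6 by 0.15 in 129 and by 0.16 in F1. Each of these calls was lost on leaving out B6 replicate 1 or B6 replicate 3, or 129 replicate 2 or 129 replicate 3 for the former and F1 replicate 1 or F1 replicate 3 for the latter. Slc25a16, the other carrier linked to coenzyme A, had 18.4 to 21.3 RPKM, and Slc25a32, linked to folate and FAD, had 5.73 to 7.06 RPKM. Neither passed in any comparison.

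The iron carriers Slc25a37 and Slc25a28 (mitoferrin 1 and 2) and the glutathione carriers Slc25a39 and Slc25a40 serve heme and iron-sulfur cluster synthesis and the redox state of the matrix. Slc25a39 (chr11:102264295-102268831, minus strand), the fifth most abundant carrier, had 187, 179 and 182 RPKM in B6, 170, 177 and 174 in 129, and 214, 190 and 198 in F1. The F1 libraries were the highest. F1 exceeded 129 by 0.21 (adjusted p = 0.0114) and the mid-parent value by 0.17 ± 0.04 (adjusted p = 0.0174), while 129 minus B6 did not pass (-0.07, adjusted p = 0.282). Without F1 replicate 1 the excess over the mid-parent value was 0.12 and did not pass. Slc25a40 had 5.19 to 5.60 RPKM in B6, 6.17 to 6.72 in 129 and from 6.38 to 6.40 in F1, with a rise of 0.21 (adjusted p = 0.00519) in 129 and of 0.20 in F1 minus B6.

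Slc25a37 had 5.65, 5.44 and 5.72 RPKM in B6, 4.78, 4.31 and 4.23 in 129, and 4.19, 4.58 and 4.38 in F1. B6 was the high group, and 129 and F1 overlapped. It fell by 0.28 in 129 and by 0.29 in F1 against B6 (log2 fold changes -0.28 and -0.29). The F1 minus mid-parent value of -0.15 was lost in 8 of 18 settings, among them rescaling and leaving out B6 replicate 1, B6 replicate 3, 129 replicate 1, F1 replicate 1 or F1 replicate 3. Slc25a28 had 12.3 to 16.0 RPKM and passed in no comparison. The genes Alas1 and Abcb10, of heme synthesis and mitochondrial transport, were read beside them. Alas1, the first enzyme of the pathway, had 213 ± 3.21 RPKM in B6, 172 ± 8.12 in 129 and 235 ± 7.81 in F1, and Abcb10, an inner membrane transporter, had 8.36 ± 0.0906, 5.90 ± 0.315 and 7.12 ± 0.103. Both were lower in 129 than in B6, at -0.31 (adjusted p = 0.00044) and -0.44 (adjusted p = 2.33e-05).

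The last group holds carriers of the outer membrane and those with no settled substrate. Of 5 tested, 3 fell in 129 against B6 (Slc25a34, Slc25a35 and Slc25a46), beside 21.7% of all tested genes. These 3 also had higher values in F1 than in 129, a comparison that uses the same 129 libraries. Slc25a34 (chr4:141174740-141179749, minus strand) had 15.9, 16.8 and 16.1 RPKM in B6, 11.9, 14.7 and 14.4 in 129, and 22.4, 21.3 and 21.7 in F1. The F1 libraries stood above all others. The F1 mean was 1.45 times the mean of the parents, a log2 fold change of 0.52 ± 0.06 (adjusted p = 0.000227), with 0.40 against B6 and 0.64 against 129. In 129 minus B6 it fell by 0.24 ± 0.07 on the log2 scale (adjusted p = 0.0173). Without 129 replicate 1, the lowest library, the log2 fold change was -0.15 and still passed (adjusted p = 0.0307).

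Slc25a35, the closest relative of Slc25a34, had 22.3, 21.6 and 23.9 RPKM in B6, 16.4, 16.5 and 15.9 in 129, and 20.6, 18.1 and 20.5 in F1. The 3 groups were separate, and F1 lay between the parents (129 minus B6 -0.45 ± 0.06, adjusted p = 0.000113; F1 minus mid-parent 0.04, adjusted p = 0.619). Its exons share 32 bases with Rangrf on the opposite strand. F1 was lower than B6 by -0.19 as a log2 fold change, which was lost in 5 of 18 settings, among them rescaling and leaving out B6 replicate 1, B6 replicate 3 or F1 replicate 2. Slc25a46, an outer membrane protein of mitochondrial dynamics, had 25.1 to 25.3 RPKM in B6, 22.1 to 22.9 in 129 and from 25.5 to 28.2 in F1. It was lower in 129 (-0.16, adjusted p = 0.0125) and higher in F1 than the mid-parent value (0.18 ± 0.04, adjusted p = 0.00632). Slc25a45 (6.41 to 7.46 RPKM) and Slc25a47 (1.03 to 1.36) passed in no comparison. Slc25a53 (0.529 to 0.707), Slc25a43 (0.0201 to 0.292), Slc25a48 (0 to 0.141) and Slc25a54 (0 to 0.034, at 0 in 6 libraries) were not tested. Slc25a48 rested on 0 to 1 reads per B6 library, 3 to 6 in 129 and 1 to 2 in F1.

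The 6 pairs of carriers with a shared substrate were set against each other within libraries, so that scaling between libraries cancels in their shares. The share of Slc25a24 in its sum with Slc25a23 was 22.8% ± 0.941 (SD, n = 3) in B6, 45.0% ± 2.90 in 129 and 25.9% ± 0.397 in F1. The share of Slc25a5 in its sum with Slc25a4 was 62.3% ± 0.638, 60.1% ± 0.576 and 59.6% ± 1.61. For Slc25a37 with Slc25a28 the share was 30.4% ± 0.913, 24.2% ± 2.68 and 23.5% ± 2.45. The first pair thus moved most, and the other shares shifted by a few points. Slc25a42 took 46.4% ± 1.75, 50.5% ± 1.53 and 49.9% ± 0.940 of its sum with Slc25a16, and Slc25a40 took 2.90% ± 0.129, 3.59% ± 0.198 and 3.09% ± 0.173 of its sum with Slc25a39. Slc25a13 was the minor aspartate/glutamate carrier at 5.32% ± 2.19, 3.56% ± 0.181 and 4.22% ± 0.229 of the sum with Slc25a12, and B6 replicate 3 (2.80%) lay below all other libraries there, so its B6 and 129 shares overlapped. On the log2(RPKM + 1) scale, the 129 minus B6 change of the within-library difference was 1.29 for Slc25a24 minus Slc25a23. It was -0.39 for Slc25a37 minus Slc25a28, -0.28 for Slc25a13 minus Slc25a12, -0.13 for Slc25a5 minus Slc25a4, 0.28 for Slc25a40 minus Slc25a39 and 0.23 for Slc25a42 minus Slc25a16. The exact two-sided permutation p was 0.1 for each of the 6 pairs, the smallest that 3 against 3 libraries can give, and 0.1 after adjustment over them. For Slc25a13, at 0.19 to 0.519 RPKM, the pseudocount of 1 makes up most of the value on that scale, so the difference of that pair says little about Slc25a13 itself.

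**Figure D4:**
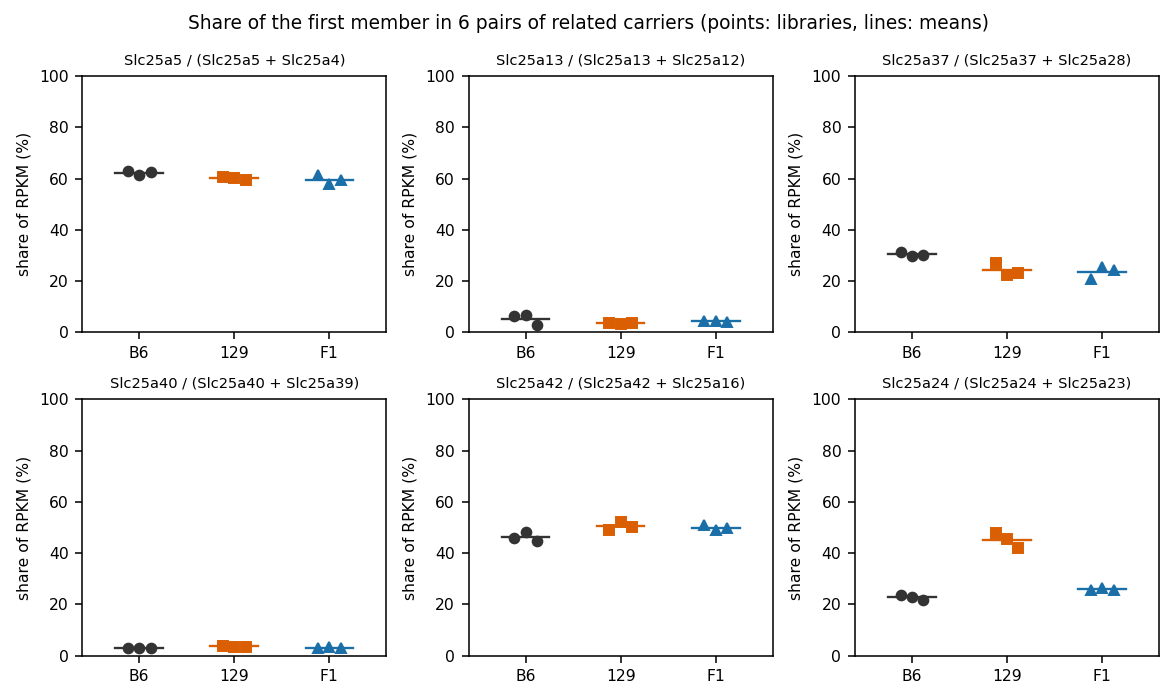
Share (%) of the first-named carrier in the summed RPKM of 6 pairs with a shared substrate, 1 point per library with the group mean as a line, axes from 0 to 100. Slc25a24 takes 42.0% to 47.8% of its sum with Slc25a23 in 129 and 21.8% to 26.4% in B6 and F1. It stays the smaller share of that pair in every library. Of the other 5 pairs, only Slc25a42 and Slc25a16 change order between libraries, and they lie near equal shares.

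Other mitochondrial lists were read beside the carriers in 129 minus B6, with the same background of 15.9% higher and 21.7% lower. Of 15 tested ATP synthase subunits, whose product the ADP/ATP and phosphate carriers serve, 8 were lower and 7 did not pass, with a median of -0.19. Atp5b, the catalytic beta subunit, had 2360 ± 117 RPKM in B6, 2030 ± 85.2 in 129 and 2440 ± 63.3 in F1, and Atp5f1, Atp5g1 and Atp5j gave -0.25, -0.33 and -0.24. Of 12 genes of mitochondrial content, 4 were lower and 1 higher, with a median of -0.13. Cs, citrate synthase, went from 774 ± 43.7 RPKM in B6 to 623 ± 14.7 in 129 and 733 ± 0.727 in F1. The import subunits gave -0.23 for Tomm22, -0.17 for Timm44 and 0.24 for Tomm40. In F1 minus mid-parent (background 8.35% higher and 14.8% lower), 6 of these 12 genes were higher and 6 did not pass, and Lonp1, a matrix protease named after its values were seen, had 91.6 RPKM in B6, 90.6 in 129 and 125 in F1. Of 21 other membrane transport genes, 6 were lower and 3 higher in 129. Slc8b1, the sodium/calcium exchanger, gave -0.34, Mcu, the pore of the calcium uniporter, 0.26 and Tspo, an outer membrane protein, 0.55. Of 35 enzymes acting next to the carriers, 10 were lower and 7 higher, and Gpd2, the mitochondrial glycerol phosphate dehydrogenase, gave -0.36.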

How the data were processed

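Poly(A) RNA of 9 libraries was prepared with a TruSeq Stranded kit, per the labels' protocols, and STAR and mm9 are named in the submitters' processing notes. The counter, annotation release, strand setting, versions and filters are not given in those sources. The authors deposited RPKM per gene. RPKM times exon length summed to 1000000 in each library, and 1-read steps gave the assigned reads (whole within 0.1 read). Cells in 5 unnamed columns were not used.

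Members, gene lists, substrate groups and tests were chosen with earlier results of these data known. limma 3.58.1 (R 4.3.3) with a mean-variance trend was fitted to log2(RPKM + 1) of the 11542 genes that reached 1 RPKM in 3 or more libraries. Groups came from the strain labels, and all libraries shared 1 estimate of spread. Two-sided p-values were adjusted over all tested genes by Benjamini-Hochberg (threshold 0.05). Every carrier is named except 1, which is not reported here but stays in the counts. Values in all libraries are given at least for the 5 most abundant and, as shares, for pairs of relatives. They are also given for called carriers whose log2 fold change was 0.5 or more in size in 129 minus B6 or F1 minus mid-parent. Of each other list up to 4 genes with the smallest p are named, and some further genes beside them. The procedure was tested on simulated data. Alternatives covered pseudocount, filters, rescaling, trend, voom on the recovered reads, sample weights, a replicate block, the groups fitted, the mid-parent scale and each library left out.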

Additional observations from a re-analysis of the deposited data

How the results depend on the processing

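No call of a carrier named with its value changed direction. Values were first counted only for the most abundant carriers and those with the largest changes, in 129 minus B6 and F1 minus mid-parent. Under the alternatives, 348 of these values kept their side of the threshold, 10 no longer passed and 2 newly passed. Carriers outside that count lost calls as well. In 129 minus B6, Slc25a51 lost its call in 10 of 18 settings and Slc25a20 in 9. In F1 minus mid-parent, Slc25a11 lost it in 14, Slc25a10 in 9 and Slc25a37 in 8. Calls held in all 18 settings for 15 of 20 carriers in 129 minus B6, 9 of 12 in F1 minus B6, 11 of 13 in F1 minus 129 and 6 of 12 in F1 minus mid-parent (among them Slc25a23, Slc25a46, Slc25a25, Slc25a12, Slc25a34). The carriers lower in F1 minus B6 numbered 13 with sample weights and 5 to 11 on leaving out 1 library. Those higher in F1 minus mid-parent numbered 4 to 6 on leaving out 1 library. Those lower in F1 minus mid-parent numbered 3 after median-of-ratios rescaling and 2 to 8 on leaving out 1 library. The cause was not tested. A fit with a replicate block gave 6 higher and 14 lower in 129 minus B6, 5 and 8 in F1 minus B6, 10 and 4 in F1 minus 129, and 6 and 5 in F1 minus mid-parent. Deviations from the group means correlated from -0.192 to 0.215 between libraries of the same number and from -0.203 to 0.231 between others. Between B6 and 129, the same numbers gave 0.066, 0.125 and 0.215, and other numbers -0.174 to 0.052. In pairs with F1, the same numbers gave -0.192 to 0.129. The same numbers thus gave the higher values between B6 and 129, while in pairs with F1 the ranges overlapped. Correlations among so few libraries cannot show whether the numbers pair them, and the labels do not say. Of the untested carriers, Slc25a27 had 51 to 139 reads per library and Slc25a53 had 33 to 123, and the other 9 had at most 49, which limits what could be detected in them.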
